A study of Mus musculus with 15 samples.

Results

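Mouse brain transcripts of the enzymes that turn polyunsaturated fatty acids into prostaglandins, leukotrienes and related lipids were followed across diets that differ in their n-3 and n-6 fatty acids. The 10 genes were Ptgds, Ptgs1, Ptgs2, Ptges, Ptges2, Ptges3, Alox5, Alox5ap, Alox15 and Ephx2, chosen by name, and their probes were those whose RefSeq identifier maps to these symbols. All 10 had probes among the 20972 gene symbols on the array, 14 probes in all, and 8 of the 10 were among the 22554 genes bright enough to be tested. Left hemibrains of male C57BL/6j mice came from animals fed from 3 weeks of age for 24 weeks on an n-3 enriched diet (ERD, n-3 to n-6 parts 7 to 1), a balanced diet (BLD, 1 to 1) or the standard laboratory diet (STD, 1 to 6), all of equal caloric content. Each diet had 5 arrays with 2 colours. Hemibrain RNA was labelled with Cy5 and a reference RNA pooled from 11 mouse cell lines with Cy3 on every array, so a value is the log2 ratio of hemibrain to reference, dyes were never swapped, and diets are compared through that reference. The labels list every array as a sample of its own without stating that each is a different animal, so p-values measure the spread between these samples.

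Fatty acids released from membranes are substrates for 3 enzyme families. Cyclooxygenases (Ptgs1, the largely constitutive enzyme, and Ptgs2, the inducible one, which neurons also express with synaptic activity) make the common prostaglandin precursor, which terminal synthases turn into individual prostaglandins. Lipoxygenases (Alox5 with its activating protein Alox5ap, and Alox15) make leukotrienes and hydroxylated lipids, and cytochrome P450 epoxygenases make epoxides that Ephx2 hydrolyses. The n-6 arachidonic acid and the n-3 eicosapentaenoic and docosahexaenoic acids compete for these enzymes, so the comparison of diets asks whether the transcripts of the enzymes themselves differ.

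None of the 8 enzymes tested passed the test between any pair of diets. In limma with Benjamini-Hochberg adjustment over all genes tested, 0 of 8 passed an adjusted p of 0.05 in ERD against STD, where 0.217% of all genes did. In BLD against STD 0 of 8 passed, against 0.00887% of all genes, and in ERD against BLD 0 of 8, against 0% of all genes. The F test over the 3 diets called 0 of 8, against 0.0488% of all genes, with unadjusted p between 0.102 for Ptges3 and 0.968 for Alox5ap, so 0 of 8 were under 0.05, against 13.5% of all genes. At an unadjusted p under 0.05 there was 1 of 8 in ERD against STD (Ptges3, lower), where 14.6% of all genes lay, 0 of 8 in BLD against STD (10.8% of all genes) and 0 of 8 in ERD against BLD (10.4%). The log2 change was above 0 for 5 of 8 enzymes in ERD against STD (53% of all genes), 5 of 8 in BLD against STD (60.5%) and 4 of 8 in ERD against BLD (42%). The 5 arrays of one diet lay wholly outside those of another for 0 of 8 enzymes in every pair, against 3.78%, 2.89% and 1.36% of all genes in ERD against STD, BLD against STD and ERD against BLD. The median log2 change of the 8 was 0.03 in ERD against STD (0.02 over all genes), 0.03 in BLD against STD (0.05) and -0.02 in ERD against BLD (-0.04). Of the 24 changes the 95% intervals of 23 included 0, and over all enzymes they reached from -0.78 to 0.55 in ERD against STD, from -0.73 to 0.79 in BLD against STD and from -0.78 to 0.81 in ERD against BLD. The 3 comparisons share arrays, so their values are not independent of each other.

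Other readouts of the same spots gave the same count. With every kept probe fitted singly, 0 of the 12 probes of the enzymes passed in limma in any pair, against 0.209% of probes in ERD against STD, 0.00759% in BLD against STD and 0% in ERD against BLD. From Cy5 alone 0 of 8 enzymes passed in any pair (0.0532%, 0.0177% and 0% of all genes in the same order), and from Cy3 alone, which holds the reference, 0 of 8 (0% of all genes in each pair). Each channel level was rebuilt from the loess-corrected ratio and the mean log2 level of both channels, so it depends on both dyes. From the signals processed by the scanner software 0 of 8 passed as well (0.191%, 0.00443% and 0%).

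**Figure D1:**
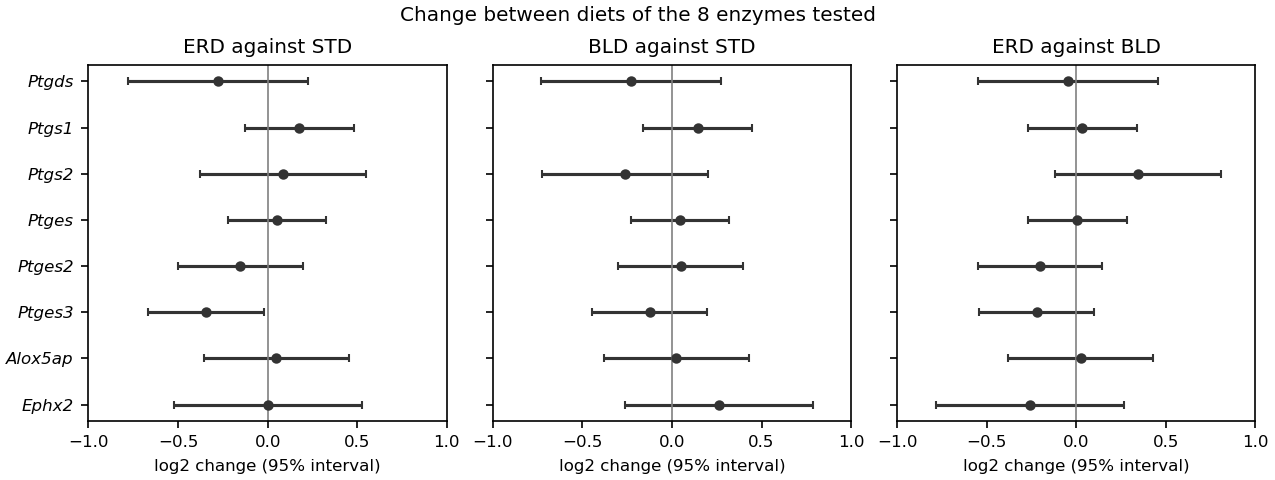
Log2 change (horizontal axis) of the 8 enzymes tested, in ERD against STD, BLD against STD and ERD against BLD; points are limma estimates and bars 95% intervals, n = 5 arrays per diet. Of all 24 intervals, that of Ptges3 in ERD against STD alone leaves out 0, and it does not pass adjustment over all genes (adjusted p = 0.314).

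**Figure D2:**
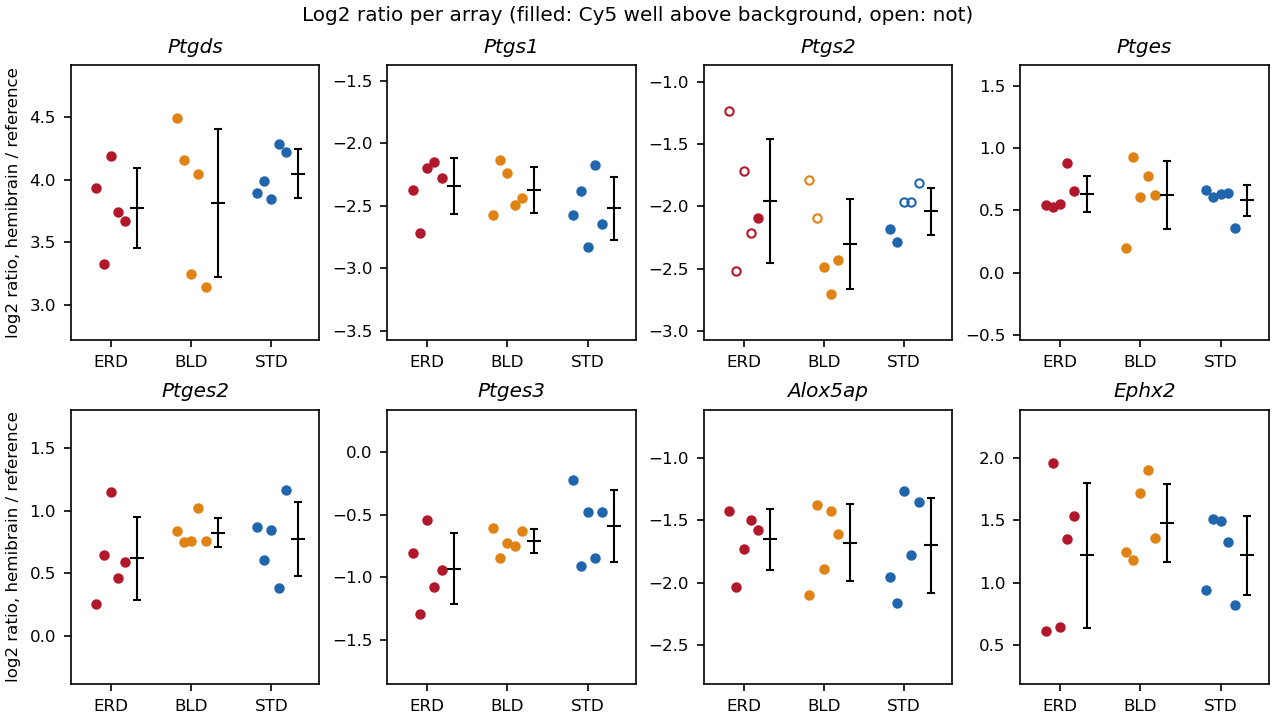
Log2 ratio of hemibrain to reference (vertical axis, each panel spanning the same number of log2 units at its own level) for the 8 enzymes tested, 1 point per array in ERD, BLD and STD with the mean and SD beside them; filled points were well above background in Cy5, open points were not. The diets overlap in every panel, and Ptgs2 alone has open points, on 9 of 15 arrays.

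The cyclooxygenases are read first, and the start regions of their genes are shown because Ptgs1 and Ptgs2 are the constitutive and the inducible copy of the same enzyme, with different detection on these arrays. The windows hold 250 bases before and 50 after the gene's start, from RefSeq on GRCm38.p6, at chr2:36230176-36230475 on the plus strand for Ptgs1 and chr1:150099781-150100080 on the plus strand for Ptgs2. Capitals mark matches, on either strand, to the letters CGTCA (the core of the cAMP response element), to the E-box CACGTG, which overlaps that core here, and to the TATA-like TTAAAA.
Ptgs1: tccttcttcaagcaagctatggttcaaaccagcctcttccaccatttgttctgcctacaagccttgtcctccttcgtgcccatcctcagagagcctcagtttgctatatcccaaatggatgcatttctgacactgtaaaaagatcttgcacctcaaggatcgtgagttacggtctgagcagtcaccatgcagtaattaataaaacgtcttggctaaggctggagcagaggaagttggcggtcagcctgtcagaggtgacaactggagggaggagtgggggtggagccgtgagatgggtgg
Ptgs2: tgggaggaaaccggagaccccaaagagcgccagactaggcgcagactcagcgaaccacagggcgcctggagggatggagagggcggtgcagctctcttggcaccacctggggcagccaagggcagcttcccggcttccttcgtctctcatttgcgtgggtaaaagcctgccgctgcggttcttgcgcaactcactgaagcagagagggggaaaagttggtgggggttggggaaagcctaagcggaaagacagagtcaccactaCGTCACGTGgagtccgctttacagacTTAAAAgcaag
The Ptgs2 window held all 3 motifs, each within the 50 bases after the annotated start, and the Ptgs1 window none of them. The motifs were picked by choice and not found by a search, so this contrast depends on that choice. Their part in the detection of either gene was not tested. Of 32851 promoter windows of that length, 20.8% held CGTCA, 7.15% CACGTG and 19.2% TTAAAA, so each match alone is common. Windows were at hand for 7 of the 10 enzymes, and outside Ptgs2 the motifs occurred in Ptges2 (CACGTG) and Ptges3 (CGTCA).

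Ptgs1 was above background on all 15 arrays. Its log2 ratios were -2.37, -2.72, -2.20, -2.15 and -2.28 on the ERD arrays, -2.58, -2.13, -2.24, -2.50 and -2.44 on the BLD arrays, and -2.57, -2.38, -2.83, -2.18 and -2.65 on the STD arrays. The 3 sets overlapped, and the signal was weaker in hemibrain than in the reference on each array, by 4.39 to 7.11 times. The size of this depends on the background treatment. From the signals processed by the scanner software the log2 ratios ran from -3.17 to -2.63. Ptgs1 averaged -2.34 ± 0.23 in ERD, -2.38 ± 0.18 in BLD and -2.52 ± 0.25 in STD (SD, n = 5 each). Its log2 change was 0.18 ± 0.14 (SE) in ERD against STD (limma adjusted p = 0.583), 0.14 in BLD against STD (adjusted p = 0.735) and 0.03 in ERD against BLD (adjusted p = 0.961). In brain Ptgs1 and Alox5ap are largely transcripts of microglia. Of 16 microglial markers 15 were measured, including Aif1, Cx3cr1 and P2ry12, and 0 of 15 were called in any pair, with a median log2 change of -0.08 (0.02 over all genes) and 1 higher and 2 lower at an unadjusted p under 0.05 in ERD against STD, where 7.09% and 7.56% of all genes lay. Their summed Cy5 level ran from 34603 to 86372 in ERD, from 30640 to 90574 in BLD and from 28160 to 33582 in STD. The ERD arrays lay above the STD arrays in that sum, in which the brightest genes weigh most. The mean log2 ratio of the 15 markers, each centred on its mean over the arrays, overlapped between diets. It ran from -0.27 to 0.06 in ERD, -0.07 to 0.15 in BLD and -0.20 to 0.17 in STD. The part of microglia in the values of Ptgs1 and Alox5ap was not tested. In a whole hemibrain, fewer cells of a type and less RNA per cell cannot be told apart.

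Ptgs2 lay near background. Its probe is printed 10 times on the array, and Cy5 spots lay at 1.12 to 2.08 times their local background. Most of the 10 spots were well above background on 1 of 5 ERD arrays, 3 of 5 BLD arrays and 2 of 5 STD arrays, while the reference channel was above background on all 15. By array, the number of spots above background was 0, 3, 0, 0 and 6 in ERD, 0, 3, 9, 10 and 8 in BLD, and 7, 10, 3, 3 and 4 in STD. In all that was 9 of 50 spots in ERD, 30 of 50 in BLD and 27 of 50 in STD. The ERD and STD arrays overlapped, and the difference of -3.6 spots per array between their means had p = 0.0952 in a 2-sided exact permutation test over the 5 arrays of each diet (Benjamini-Hochberg 0.202 over 3 pairs). ERD against BLD had p = 0.135 (Benjamini-Hochberg 0.202) and BLD against STD p = 0.881, by the same exact test, which was added after the values were seen. All spots of an array that were above background numbered 24692 ± 4193 in ERD, 27945 ± 3535 in BLD and 26949 ± 1612 in STD (SD, n = 5), and the part of this in the Ptgs2 counts was not tested.

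The log2 ratios of Ptgs2 were -1.24, -2.52, -1.72, -2.21 and -2.09 in ERD, -1.78, -2.09, -2.49, -2.70 and -2.43 in BLD, and -2.18, -2.28, -1.96, -1.96 and -1.81 in STD. The highest value (ERD 1) came from the array with the fewest spots above background, 17720, and the lowest (BLD 4) from the array with the most, 31991. The copies of the probe within an array had an SD over spots of 0.059 to 0.133, and the ERD arrays an SD of 0.49. The log2 change was 0.08 ± 0.22 (SE) in ERD against STD (limma adjusted p = 0.887), -0.26 in BLD against STD (adjusted p = 0.676) and 0.34 in ERD against BLD (adjusted p = 0.592). The direction of ERD against STD turned under 8 of 32 other settings. From the signals as processed by the scanner software the means were -5.56 ± 0.99 in ERD, -4.58 ± 0.21 in BLD and -4.47 ± 0.44 in STD (SD, n = 5), a change of -1.09 in ERD against STD (limma unadjusted p = 0.0121, adjusted p = 0.149) and of -0.98 in ERD against BLD (unadjusted p = 0.0213, adjusted p = 0.357). With the number of spots above background as a covariate the change in ERD against STD was -0.16 (limma adjusted p = 0.417).

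**Figure D3:**
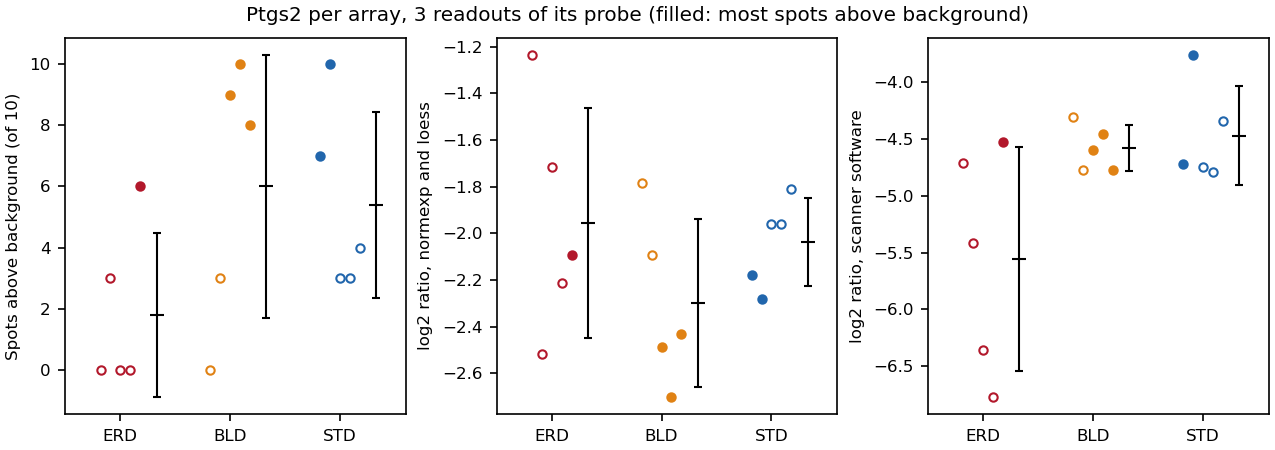
Ptgs2 on each array of ERD, BLD and STD in 3 readouts of its probe: the number of its 10 spots well above background in Cy5, the log2 ratio after normexp and loess (over 8 to 10 spots, with outliers left out), and the log2 ratio of the scanner software (vertical axes, mean and SD beside the points; filled where most spots were above background). ERD has the fewest spots above background, 9 of 50, and its mean ratio is the highest of the diets in the middle panel (-1.96) and the lowest in the right panel (-5.56).

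Ptgs2 is also known as an activity-regulated gene of neurons. Of 13 genes of that kind, among them Fos, Egr1 and Arc, 12 were measured and 0 were called in any pair. In ERD against STD 11 of the 12 had a negative log2 change, with a median of -0.44 (0.02 over all genes) and 4 of 12 at an unadjusted p under 0.05 (lower, 7.56% of all genes). Their part in the number of Ptgs2 spots above background was not tested.

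Ptgds makes prostaglandin D2 in brain and is secreted into the cerebrospinal fluid as a lipocalin, mainly by leptomeninges, choroid plexus and oligodendrocytes. Its hemibrain signal exceeded the reference on every array, by 8.83 to 22.5 times, with Cy5 spots at 607 to 1933 times their background. Its log2 ratios were 3.93, 3.33, 4.19, 3.74 and 3.67 in ERD, 4.49, 4.16, 3.24, 4.05 and 3.14 in BLD, and 3.89, 3.99, 3.85, 4.28 and 4.22 in STD. The BLD arrays held both the highest value and the lowest, and the STD arrays lay closest together. Ptgds averaged 3.77 ± 0.32 in ERD, 3.82 ± 0.59 in BLD and 4.05 ± 0.20 in STD (SD, n = 5 each). Ptgds had a log2 change of -0.28 ± 0.24 (SE) in ERD against STD (limma adjusted p = 0.605), -0.23 in BLD against STD (adjusted p = 0.744) and -0.04 in ERD against BLD (adjusted p = 0.966). In ERD against STD it was -0.09 in Cy5 alone (adjusted p = 0.927) and 0.19 in Cy3 alone (adjusted p = 0.999). Both channel levels are rebuilt from the loess-corrected ratio, so these values do not place the change in either channel.

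Of the cell types known to make Ptgds, 14 of 15 choroid plexus markers, 15 of 15 markers of meninges and perivascular fibroblasts and 14 of 14 oligodendrocyte markers were measured, and 0 were called in any pair. Their median log2 changes in ERD against STD were 0.01, 0.02 and -0.17 (0.02 over all genes), with 2, 2 and 3 genes at an unadjusted p under 0.05, where 14.6% of all genes lay. Summed over the 13 choroid plexus markers with a value on every array, the Cy5 level ran from 28660 to 38887 in ERD, from 24779 to 42304 in BLD and from 19970 to 25838 in STD. The ERD arrays lay above the STD arrays in that sum, in which the brightest genes weigh most. The mean log2 ratio of the 14 markers, each centred on its mean over the arrays, overlapped between diets. It ran from -0.23 to 0.24 in ERD, -0.12 to 0.21 in BLD and -0.06 to 0.02 in STD. The summed Cy5 level ran from 8292 to 9808 in ERD, 6621 to 11294 in BLD and 7523 to 8952 in STD for the meningeal list, and from 64968 to 114621 in ERD, 59016 to 86036 in BLD and 53351 to 85958 in STD for the oligodendrocyte list. The part of these cell types in the spread of Ptgds was not tested.

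The prostaglandin E synthases are Ptges, the inducible membrane enzyme that works with Ptgs2, Ptges2, a membrane-associated enzyme, and Ptges3, a cytosolic protein better known as p23, a co-chaperone of Hsp90. The probe tested for Ptges (A_55_P1974193) had log2 ratios of 0.55, 0.53, 0.55, 0.88 and 0.66 in ERD, 0.20, 0.93, 0.61, 0.78 and 0.62 in BLD, and 0.67, 0.61, 0.63, 0.64 and 0.36 in STD. The diets overlapped almost fully, and the log2 change was 0.05 in ERD against STD (limma adjusted p = 0.883) and 0.05 in BLD against STD (adjusted p = 0.917). The other Ptges probe (A_55_P1974189) was above background on 4 of 5 ERD arrays, 3 of 5 BLD arrays and 5 of 5 STD arrays, with means of -0.87 ± 0.31 in ERD, -1.06 ± 0.20 in BLD and -1.17 ± 0.22 in STD (SD, n = 5). Its change in ERD against STD was 0.30 ± 0.16 (SE, limma adjusted p = 0.397), and it did not follow the first probe over the 15 arrays (r = 0.12, a description). Neither probe passed the test.

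Ptges2 had log2 ratios of 0.26, 0.65, 1.15, 0.46 and 0.59 in ERD, 0.84, 0.75, 0.76, 1.02 and 0.76 in BLD, and 0.87, 0.61, 0.85, 0.39 and 1.17 in STD. The BLD arrays lay inside the range of both other diets. Ptges2 averaged 0.62 ± 0.33 in ERD, 0.82 ± 0.12 in BLD and 0.77 ± 0.29 in STD (SD, n = 5), with a log2 change of -0.15 ± 0.16 (SE) in ERD against STD (limma adjusted p = 0.683) and of -0.20 in ERD against BLD (adjusted p = 0.687).

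Ptges3 had the lowest unadjusted p of the enzymes in these fits, while from the scanner software's processed signals it was Ptgs2. The probe tested (A_55_P1994355) had log2 ratios of -0.81, -1.29, -0.54, -1.08 and -0.94 in ERD, -0.61, -0.84, -0.72, -0.75 and -0.63 in BLD, and -0.22, -0.91, -0.48, -0.85 and -0.48 in STD. The mean was lowest in ERD, but the ERD and STD arrays overlapped between -0.91 and -0.54. Ptges3 averaged -0.93 ± 0.28 in ERD, -0.71 ± 0.10 in BLD and -0.59 ± 0.29 in STD (SD, n = 5 each). The log2 change in ERD against STD was -0.34 ± 0.15 (SE, 95% interval -0.67 to -0.02), with an unadjusted p of 0.0375 and an adjusted p of 0.314 in limma. It was -0.12 in BLD against STD (adjusted p = 0.793) and -0.22 in ERD against BLD (adjusted p = 0.624). In Cy5 alone ERD against STD gave -0.34 (limma adjusted p = 0.504), and in Cy3 0.01, levels that each depend on both dyes. Of the 15 fits that left out 1 array, 9 kept an unadjusted p under 0.05, with changes between -0.44 and -0.25.

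Ptges3 has 4 probes, whose changes differed in size and sign. In ERD against STD the other 3 gave log2 changes of -0.94 ± 0.40 (SE, A_55_P2018542, limma unadjusted p = 0.0319, adjusted p = 0.300), -0.16 ± 0.28 (A_55_P2079485) and 0.12 ± 0.23 (A_55_P2100526). The first of these stood at -2.21, -3.53, -1.36, -1.72 and -1.75 in ERD, -0.29, -0.90, -2.38, -0.63 and -1.70 in BLD, and -1.50, -0.83, -1.27, -1.04 and -1.22 in STD. Its lowest value, on ERD 2, is far from the others, and ERD 1 was not above background. In ERD against BLD this probe gave -0.93 (limma unadjusted p = 0.0333, adjusted p = 0.448). A_55_P2018542 and A_55_P2079485 followed each other over the 15 arrays (r = 0.80, a description), while the other 5 pairs of Ptges3 probes had r between -0.02 and 0.45. The position of the probes in the transcript was not used here.

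**Figure D4:**
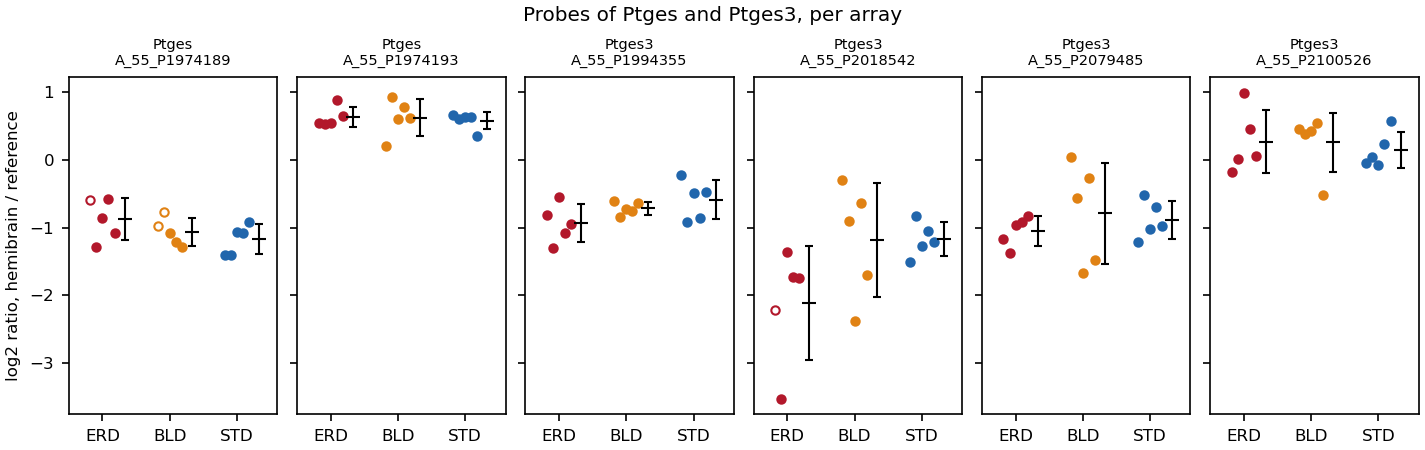
Log2 ratio of hemibrain to reference (vertical axis) for each probe of Ptges (left 2 panels) and Ptges3 (right 4 panels), 1 point per array in ERD, BLD and STD with mean and SD; open points were not above background in Cy5. In ERD against STD the Ptges3 probes differ by -0.34, -0.94, -0.16 and 0.12 from left to right.

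The lipoxygenase branch was largely at background. Alox5, which starts leukotriene synthesis, was above background in Cy5 on 1 of 5 ERD arrays, 3 of 5 BLD arrays and 0 of 5 STD arrays, at 1.16 to 2.24 times the local background, and in the reference on 13 of 15. Alox15, which makes hydroxylated fatty acids and precursors of pro-resolving lipids, was above background on 0 of 15 arrays in either channel. Neither met the filter for testing, and no fold is given. Their transcripts were not well above background at the sensitivity of these arrays, which does not show that they are absent. Alox5ap, the membrane protein that presents arachidonic acid to Alox5, was above background on all 15 arrays. Its log2 ratios were -1.43, -2.04, -1.73, -1.50 and -1.58 in ERD, -2.10, -1.38, -1.89, -1.42 and -1.61 in BLD, and -1.95, -2.16, -1.27, -1.78 and -1.36 in STD. The STD arrays held both the lowest and the highest value, and the means of -1.65 ± 0.24 in ERD, -1.68 ± 0.31 in BLD and -1.70 ± 0.38 in STD (SD, n = 5) were closer together than the arrays of any diet. Alox5ap had a log2 change of 0.05 ± 0.19 (SE) in ERD against STD (limma adjusted p = 0.930), 0.02 in BLD against STD and 0.03 in ERD against BLD. Blood leukocytes also carry Alox5 and Alox5ap. Of 13 neutrophil and monocyte markers 3 were measured (S100a9, Camp and Elane), 0 of them called, and 7, among them Ngp, Ltf and Ccr2, were above background on no array.

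Ephx2, the soluble epoxide hydrolase, was above background on all 15 arrays in hemibrain and on 9 of 15 in the reference. Its log2 ratios were 0.62, 1.96, 0.65, 1.35 and 1.53 in ERD, 1.25, 1.18, 1.72, 1.90 and 1.36 in BLD, and 0.94, 1.51, 1.49, 1.32 and 0.82 in STD. ERD held both ends of the range, with ERD 1 lowest and ERD 2 highest, and its SD of 0.58 compares with 0.31 in BLD and 0.32 in STD. Ephx2 averaged 1.22 in ERD, 1.48 in BLD and 1.22 in STD. The log2 change was 0.00 ± 0.25 (SE, 95% interval -0.52 to 0.53) in ERD against STD (limma adjusted p = 0.997), 0.26 in BLD against STD (adjusted p = 0.716) and -0.26 in ERD against BLD (adjusted p = 0.747). From the signals processed by the scanner software the means were 3.51 in ERD, 3.48 in BLD and 3.58 in STD, and the changes -0.07, -0.10 and 0.03 in the same order (limma adjusted p = 0.900, 0.904 and 0.975), so those of BLD against STD and ERD against BLD turned. ERD 1, the array with the fewest spots above background, was thus at the low end for Ephx2 and at the high end for Ptgs2. Ephx2 was near background in the reference, and Ptgs2 in the hemibrain.

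The wider pathway was described from 7 lists with 60 genes, of which 33 were measured and 0 were called in any pair of diets. At an unadjusted p under 0.05 there were 3 higher and 2 lower of 33 in ERD against STD, where 7.09% and 7.56% of all genes lay, 2 higher and 1 lower in BLD against STD (7.74% and 3.09%), and 2 higher and 1 lower in ERD against BLD (2.65% and 7.73%). The genes named here are those of lowest unadjusted p in each list in ERD against STD. Among the other prostanoid synthases, of which 5 of 6 were measured, Cbr1, a carbonyl reductase that acts on prostaglandins, had log2 ratios of 1.84, 1.97, 1.44, 1.70 and 1.72 in ERD, 1.71, 1.79, 1.58, 1.34 and 1.72 in BLD, and 1.44, 1.44, 1.44, 1.29 and 1.23 in STD. All but 1 of the ERD arrays lay above all STD arrays. The log2 change was 0.36 ± 0.12 (SE, limma unadjusted p = 0.00711, adjusted p = 0.194). Hpgds, the haematopoietic prostaglandin D synthase, was above background on no array.

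Of the prostanoid receptors 3 of 10 were measured, and Ptger2, Ptger4, Ptgdr, Ptgdr2 and Ptgir were above background on no array. Ptger1, a receptor for prostaglandin E2, was above background on 2 of 5 ERD arrays, 4 of 5 BLD arrays and 0 of 5 STD arrays, so it was measured through the other two diets only and no fold against STD is given. All 6 genes of prostanoid breakdown and transport were measured, and Slco2a1, the prostaglandin transporter, had a change of 0.41 ± 0.19 (SE, limma adjusted p = 0.321). Of the leukotriene enzymes and receptors 4 of 11 were measured, with none of the 5 receptors of the list among them. Mgst3, a membrane glutathione transferase that can conjugate leukotriene precursors, had log2 ratios of -1.92, -2.52, 1.95, 0.99 and 0.92 in ERD, 1.20, 1.48, 0.42, 1.92 and 1.05 in BLD, and 1.61, 1.19, 1.66, 1.28 and 2.40 in STD. The low mean of ERD comes from ERD 1, which was not above background, and ERD 2, while the other 3 ERD arrays lay within or close to the range of STD. The change of -1.75 ± 0.68 (SE) had an adjusted p of 0.260 in limma, and a further Mgst3 probe showed the same arrays low, at -1.42 and -2.29, with a change of -1.37.

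Of the other lipoxygenases 3 of 5 were measured, and Alox12b, an enzyme of the skin barrier, had a change of 0.32 (limma adjusted p = 0.365) that a further probe did not share (0.02). Of the epoxygenases, hydroxylases and other epoxide hydrolases 9 of 14 were measured, and Ephx4, a relative of Ephx2, had means of 3.51 ± 0.43 in ERD, 3.81 ± 0.26 in BLD and 4.08 ± 0.26 in STD (SD, n = 5), a change of -0.57 ± 0.20 in ERD against STD (SE, limma adjusted p = 0.219). Of the receptors of pro-resolving mediators and n-3 fatty acids 3 of 8 were measured. Lgr6 was above background on 5 arrays, the fewest that the filter allows, and among the STD arrays on STD 3 alone. Its change of 0.24 (limma adjusted p = 0.420) thus rests largely on arrays where it was not above background. Cmklr1, Fpr2, Gpr18, Ffar1 and Ffar4 were above background on no array.

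**Figure D5:**
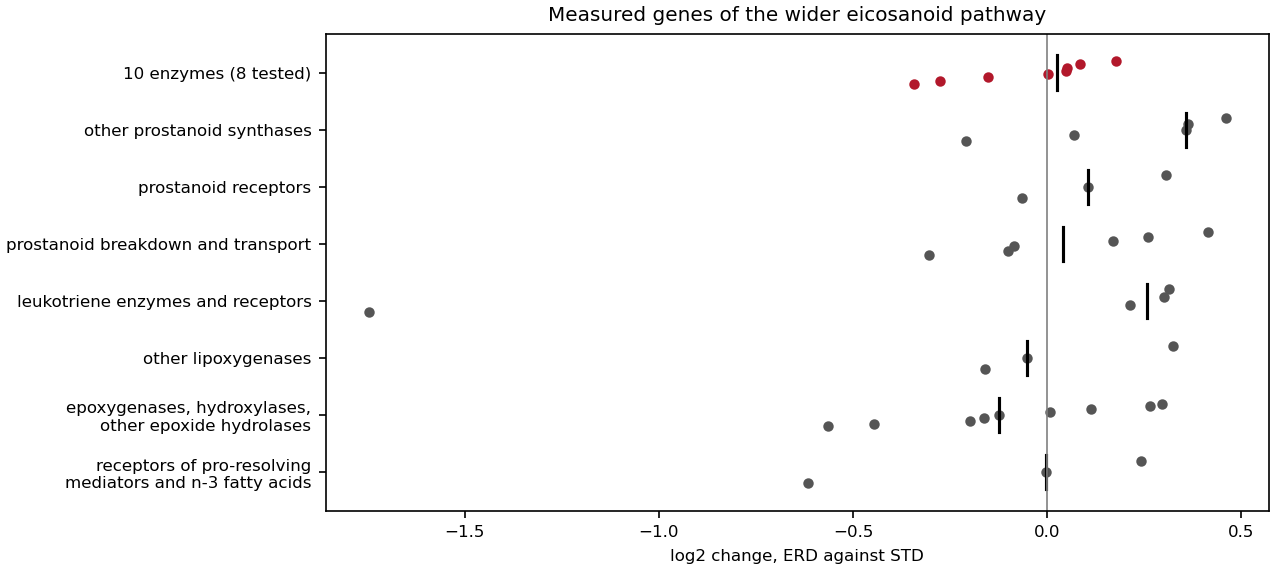
Log2 change in ERD against STD (horizontal axis) of the 8 enzymes tested (top row) and of the measured genes of 7 wider eicosanoid lists, 1 point per gene with the median of each row as a vertical bar. The point at -1.75 is Mgst3, and 0 genes of any row passed an adjusted p of 0.05.

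The genes whose log2 ratio followed an enzyme most closely over the 15 arrays were looked up among 9339 genes above background on every array. The closest were Prr13 for Ptgds (r = 0.90), Det1 for Ptgs1 (r = 0.80), Naca for Ptges (r = 0.84), Dbn1 for Ptges2 (r = 0.82), Zbtb14 for Ptges3 (r = 0.90), Ccdc102a for Alox5ap (r = 0.90) and Slc35g2 for Ephx2 (r = 0.92). The next in order were Pik3ip1 and Cd63 for Ptgds, Myo19 and Cux1 for Ptgs1, Nup107 and Cdk5rap2 for Ptges, Stx1a and Tmem151a for Ptges2, Topors and Tmem184b for Ptges3, Actg1 and Psmb9 for Alox5ap, and Soga3 and Tmc7 for Ephx2. These are descriptions, since all genes share the same arrays, reference and dyes.

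The arrays lay on 8 slides and were scanned on 2 days, with 1 ERD, 3 BLD and 0 STD arrays on the second. With slide as a block 0 of 8 enzymes were called in any pair. BLD and STD arrays met on slide 7 alone, 1 of each, so the block leaves little direct comparison for that pair. Within slides, ERD against STD for Ptges3 was -0.38, -0.32 and -0.09 on the 3 slides that hold both diets, while Ptgds was at -0.66, 0.30 and -0.61 and Ptgs2 at -0.24, 0.46 and -0.13. Alox5ap (0.12, 0.22 and 0.20) and Ptges2 (0.04, 0.28 and 0.20) also had 1 sign on the 3 slides, and for Ptges2 it was opposite to that of its change over all arrays (-0.15). The arrays ERD 1, BLD 3 and ERD 4 followed the others least closely across genes (median r of 0.880, 0.911 and 0.914). Without them Ptges3 in ERD against STD was at -0.34 (limma adjusted p = 0.626), Ptgds at -0.32 and Ptgs2 at -0.07. Neurons (11 of 11 markers measured), astrocytes (12 of 12) and oligodendrocytes (14 of 14) were represented as the tissue label gives. Of the astrocyte markers 0 of 12 were called in any pair. At an unadjusted p under 0.05 in ERD against STD 1 was higher and 4 were lower, where 7.09% and 7.56% of all genes lay. The Cy5 level was summed over the 11 astrocyte markers with a value on every array, and the brightest genes weigh most in it. It ran from 72600 to 118051 in ERD, 76435 to 113752 in BLD and 118231 to 167013 in STD. In that sum STD lay above both other diets. The mean log2 ratio of the 12 markers, each centred on its mean over the arrays, overlapped between diets. It ran from -0.28 to 0.23 in ERD, -0.10 to 0.14 in BLD and -0.03 to 0.26 in STD. Aldoc, an aldolase of astrocytes, had a log2 change of -0.61 in ERD against STD (limma adjusted p = 0.142). It was the 1 marker of 12 without overlap of the arrays there, against 3.78% of all genes. Gfap, an intermediate filament of astrocytes, had a change of 1.04 (limma adjusted p = 0.121). The summed level of neuronal markers, in which the brightest genes weigh most, ran from 67466 to 121649 in ERD, from 69703 to 103329 in BLD and from 66968 to 80760 in STD. By gene, 9 of the 11 neuronal markers were lower and 2 higher in ERD against STD. Their median log2 change there was -0.26 (0.02 over all genes), and 0 were called. Their centred mean log2 ratio ran from -0.90 to 0.07 in ERD, -0.17 to 0.42 in BLD and -0.19 to 0.39 in STD. The part of these cells in the values of the enzymes was not tested.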

How the data were processed

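Hemibrain RNA of 15 arrays, 5 per diet, was hybridised in 2 colours, and groups follow the diet label, since every title holds the word control. The deposited scanner files hold spot intensities and log10 ratios of Cy5 over Cy3. Per the file headers they come from version 11.5.1.1 of Agilent's Feature Extraction, and per the submitters' processing notes from version 10.7. The deposited table of log10 ratios equals the scanner ratios within 1e-09.

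Median intensities were corrected with normexp (offset 50) and loess within arrays (control spots not weighted) with limma 3.58.1 in R 4.3.3. Outlier spots (0.574%) were left out, spots of a probe averaged, and probes kept whose Cy5 was well above background on 5 or more of 15 arrays and that had 8 or more values (26343 of 55681 probes). For a probe printed several times, above background means most of its spots. Cy5 and Cy3 levels were rebuilt from the loess-corrected ratio and the mean log2 level of both channels, quantile normalized between arrays. Each level therefore depends on both dyes. Of the 55681 probes 27656 had a symbol through RefSeq identifiers, and the probe of highest mean Cy5 level stood for its symbol (13761 genes with a symbol, 8793 probes without). A limma model over the 3 diets with 12 residual degrees of freedom gave 2-sided p-values adjusted over 22554 genes and a threshold of 0.05. Precision is limited by the number of arrays (median standard error of a change on the log2 scale 0.163). The scripts were tested on simulated data.

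The 10 enzymes, the lists and the tests were chosen with earlier results of these data known. All 10 enzymes are named with every probe, of each wider list the gene of lowest unadjusted p in ERD against STD (none passed an adjusted p of 0.05), and for each enzyme above background on all arrays the 3 genes of highest correlation. Alternatives were other background and channel treatments, filters, probe summaries, blocks for slide and scan day, array weights and leaving out arrays. The headers name another genome build (mm9) than the promoter sequences, so no coordinates of the files are given. Python 3.11.15, pandas 2.3.3, scipy 1.17.1 and matplotlib 3.10.9 were used for the spot counts and figures.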

Additional observations from a re-analysis of the deposited data

Results flagged for a closer look

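Within a diet, 36 groups of 5 arrays (each kept probe of the enzymes in each diet) were searched for an array far from the others by Dixon's criterion (critical value 0.71), and 2 stood out, where chance alone marks about 1 in 20 groups. STD 5 lay at 0.36 for the tested Ptges probe (A_55_P1974193), where the nearest STD array lay at 0.61. BLD 5 lay at -0.51 for a Ptges3 probe (A_55_P2100526), where the nearest BLD array lay at 0.39. Without STD 5 or any other array in turn, the change of Ptges in ERD against STD stayed between -0.01 and 0.08.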

How the results depend on the processing

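The number of enzymes called stayed at 0 in each pair of diets and in the F test under all 30 alternative settings, 15 of which left out 1 array each and 1 of which (quantile normalization of all single channels) was added after the data were seen. Aquantile normalization leaves the ratio as it is by construction. The median log2 change of the enzymes ran from -0.09 to 0.07 in ERD against STD, from -0.10 to 0.09 in BLD against STD and from -0.11 to 0.11 in ERD against BLD, and with single arrays left out from -0.04 to 0.07, -0.04 to 0.09 and -0.11 to 0.06. Ptges3 in ERD against STD was negative in all 33 settings (-0.44 to -0.09), of which those within slides have no p. Of the 30 refits 16 had a limma unadjusted p under 0.05, 9 of them with 1 array left out. The lowest adjusted p was 0.165. These settings are not independent of each other. Both changes of the filter and keeping outlier spots left the Ptges3 estimate at -0.34 by construction. The same probe stood for the gene, and its 1 spot was marked as an outlier on no array. Like Aquantile, these settings are counted among the 33 settings and the 16 refits. Ptgs2 in ERD against STD ran from -1.09 (processed signals of the scanner software) to 0.46, with 8 of 32 values of the other sign. A normexp offset of 1 gave -0.39, and leaving out ERD 1 alone gave -0.10. The cause of this was not tested. The number of enzymes at an unadjusted p under 0.05 ran from 0 to 1 in ERD against STD and from 0 to 1 in BLD against STD. In ERD against STD it was 0 in 13 of 30 settings, among them leaving out ERD 2, 4 or 5 or STD 1, 3 or 5. In ERD against BLD it ran from 0 to 2 and was above 0 in 6 of 30 settings. It was 2 under slide as a fixed block and without ERD 3, and 1 without ERD 2 or BLD 1. It was also 1 with the processed signals of the scanner software (Ptgs2) and with quantile normalization of all single channels (Ptgds). The F test gave 0 to 2 and was above 0 in 5 of 30 settings, among them slide as a fixed block (2) and leaving out ERD 3 or STD 2 (1). Over all genes, the calls in ERD against STD were 49 and ran from 0 (without the 3 least correlated arrays) to 170 (without ERD 3), those in BLD against STD were 2 and ran from 0 to 27, and those of the F test were 11 and ran from 1 to 93. Without a filter on dim probes Alox5 and Alox15 entered the fit and neither passed in any pair (lowest limma adjusted p = 0.574; the lowest unadjusted p, 0.0414 for Alox15 in BLD against STD, comes from signals at background). No paired analysis was possible because the labels give no replicate numbers that link arrays across diets, and arrays sharing a slide were compared through the slide block and within slides. Ptgs2, Alox5 and Alox15 are limited by signal over background, Ephx2 by that of the reference, and all enzymes by the number of arrays.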
